A study of Mus musculus with 16 samples.

Results

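Interferon-induced and Schlafen genes were examined through H3K4me2, the dimethyl form of lysine 4 on histone H3 that marks promoters and enhancers, in 4 sorted populations of mouse medullary thymic epithelial cells (mTEC). The members are the peaks of the merged, annotated peak table whose nearest-gene symbol begins with Ifi, Ifn, Isg, Oas, Gbp, Slfn, Irgm, Iigp, Igtp or Irf and a digit, or is 1 of a short set of further genes that includes Stat2, Mx1, Mx2, Rsad2, Rtp4 and Usp18. The rule took 134 of 29472 peaks, which belong to 76 genes, and all 134 passed the filter on low values. Symbols alone chose them, by a rule that was set with earlier results of these data known. The rule also took 15 peaks of Irf2bp1, Irf2bp2 and Irf2bpl, corepressors that bind IRF2 and share only the first letters of its name, and these are among the 134. They are described as a family of their own, and the main counts are also given without them.

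All cells came from thymus of C57BL/6 mice kept free of specific pathogens and were Epcam-positive and CD45-negative. The gates were Itgb4-positive with low MHC class II for mTEC-I, high MHC class II for mTEC-II, Ly6D-positive for mTEC-III, and L1cam-positive with low MHC class II and no Itgb4 for mTEC-IV. The labels give no treatment, genotype, age or sex, and each population had 2 H3K4me2 libraries. Another 8 samples of whole-cell extract were not used here. Whether both libraries of a population stem from different mice is not in the labels, and every p-value below therefore covers no more than the spread among these samples, possibly a technical one.

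Interferons are secreted proteins that act on cells through receptors of the Janus kinase and STAT pathway. Type I and type III interferons assemble STAT proteins and IRF9 into a complex that binds the interferon-stimulated response element (ISRE), whereas interferon gamma drives STAT dimers to the gamma-activated site (GAS). The genes so induced encode sensors of foreign nucleic acid, inhibitors of viral entry and translation, and GTPases that attack the compartments of intracellular parasites. In the thymic medulla, epithelial cells express interferons and many interferon-induced genes in uninfected mice, and Schlafen genes form a family, partly induced by interferon, that acts on cell growth, transfer RNA and viral replication.

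The ISRE was searched as GAAA, any 2 bases and GAAA, and the GAS as TTCNNNGAA, on both strands of RefSeq promoters (GRCm38.p6, 250 bases before to 50 after a start). RefSeq promoters were found for 60 of the 76 genes, with 71 promoters between them. At least one ISRE match lay in 26 of the 71 (36.6%), beside 1131 of all 32841 promoters of that length (3.44%). For the GAS the counts were 19 of 71 (26.8%), beside 8.30% of all promoters. The 2 stretches upstream of the starts of Ifit3 and Slfn8 are shown because the peaks at these genes carry 2 of the patterns described below, and capitals mark the ISRE matches.
Ifit3 (chr19:34583279-34583528, plus strand): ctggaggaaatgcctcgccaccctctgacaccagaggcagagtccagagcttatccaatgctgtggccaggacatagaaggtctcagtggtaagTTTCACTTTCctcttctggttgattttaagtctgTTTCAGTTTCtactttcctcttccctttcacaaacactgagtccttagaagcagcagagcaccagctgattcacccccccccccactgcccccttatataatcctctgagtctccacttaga
Slfn8 (chr11:83020811-83021060, minus strand): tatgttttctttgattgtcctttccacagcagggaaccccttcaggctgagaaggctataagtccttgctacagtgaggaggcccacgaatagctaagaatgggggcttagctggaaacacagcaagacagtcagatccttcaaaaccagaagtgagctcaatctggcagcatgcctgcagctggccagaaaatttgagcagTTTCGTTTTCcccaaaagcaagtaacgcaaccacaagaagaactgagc

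Windows of 30 bases around an ISRE match are shown for members of the Ifit, Oas, Schlafen, IRG and other families, all upstream of the start and read along the gene, so that copies within a family can be compared.
Ifit3 (chr19:34583363-34583392, plus strand): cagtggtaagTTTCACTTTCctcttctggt
Ifit3b (chr19:34607759-34607788, plus strand): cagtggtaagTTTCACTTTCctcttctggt
Ifit1 (chr19:34640775-34640804, plus strand): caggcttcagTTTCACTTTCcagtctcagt
Oas1a (chr5:120907526-120907555, minus strand): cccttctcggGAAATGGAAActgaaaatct
Oas1g (chr5:120887612-120887641, minus strand): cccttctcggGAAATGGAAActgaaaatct
Oas3 (chr5:120777715-120777744, minus strand): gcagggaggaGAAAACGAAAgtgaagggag
Slfn8 (chr11:83020839-83020868, minus strand): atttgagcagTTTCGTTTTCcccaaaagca
Slfn9 (chr11:82991856-82991885, minus strand): atccgagcagTTTCGTTTTCccaaaaacaa
Igtp (chr11:58199512-58199541, plus strand): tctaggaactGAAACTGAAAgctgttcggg
Irgm2 (chr11:58214903-58214932, plus strand): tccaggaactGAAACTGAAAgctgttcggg
Gbp2 (chr3:142620594-142620623, plus strand): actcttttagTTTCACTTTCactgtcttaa
Gbp5 (chr3:142496759-142496788, plus strand): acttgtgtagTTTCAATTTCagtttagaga
Rsad2 (chr12:26456553-26456582, minus strand): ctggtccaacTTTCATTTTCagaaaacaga
Stat2 (chr10:128270266-128270295, plus strand): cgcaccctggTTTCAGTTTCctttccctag
The windows of Ifit3 and Ifit3b are the same, as are those of Oas1a and Oas1g. Reads from such near-identical copies could be placed at either gene, and no source used here says how they were placed, so values at copies of the Ifit, Oas1, Schlafen, Gbp, p200 and IRG families are uncertain in that respect. An ISRE match lay in 4 of 5 Gbp promoters, 3 of 4 IRG promoters, 3 of 5 Ifit promoters, 3 of 5 Oas promoters and 4 of 7 Schlafen promoters, against 1 of 11 IRF promoters and 1 of 10 of receptors and ligands. A match is a description of letters and not a measured site. Slfn8 has a pair of annotated starts, and the same match counts in both of its promoters. Among genes with a peak near the start, the match lay in 6 of 15 promoters (40.0%) of genes whose peak was higher in mTEC-I than in each other population, and in 19 of 45 (42.2%) of the other member genes.

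Values are H3K4me2 tags per 10000000 tags of a library, as the authors deposited them, and are quoted for both libraries of each population. Library totals ran from 1702103.5 to 15412132.5 tags. The shallowest was mTEC-I replicate 2, in which 1 tag is worth 5.88 tags per 10000000 and 0 tags are compatible with a level of up to 17.6, against 1.95 to 4.64 in the other libraries. Differences are on the log2(value + 1) scale with the standard error (SE) of limma's fit over 29469 peaks, and are called at a Benjamini-Hochberg adjusted p under 0.05 over all those peaks. The fit takes 1 spread per peak for all 4 populations, but the spread differed between them. Over all tested peaks, the log2 difference between the 2 libraries had a standard deviation of 0.835 in mTEC-I and 0.264 in mTEC-II. It was 0.384 in mTEC-III and 0.327 in mTEC-IV. At member peaks within 3000 bases of a start these were 0.358, 0.13, 0.235 and 0.237. The SE and p may thus be too small in pairs with mTEC-I and too large in other pairs. The gate genes followed the sort in that Itgb4 peaks summed highest in mTEC-I (308 against 224 to 241), Ly6d in mTEC-III (333 against 76.5 to 106) and L1cam in mTEC-IV (191 against 47.6 to 67.8), all as means of 2 libraries. The MHC class II genes did not follow it in full. H2-Aa had 444 in mTEC-I, gated as low, 402 in mTEC-II, gated as high, 357 in mTEC-III and 242 in mTEC-IV. H2-Ab1 had 565, 628, 562 and 382 in the same order. Of 6 T lineage markers only Tcf7 had a peak, and Spi1, Col3a1 and Lum had none. The summed level of the 4 fibroblast markers with a peak was 479.8 and 608 in mTEC-I, where mTEC-II had 333 and 309, mTEC-III had 198 and 243, and mTEC-IV had 407 and 416. For the 6 endothelial markers it was 1272 and 1259 in mTEC-IV and 474 to 767 elsewhere, and Ptprc, which encodes CD45, had 269 and 265 in mTEC-IV and 30.03 to 48.9 elsewhere. Within both lists the genes differed. Pdgfra made up most of the fibroblast sum in mTEC-I (359.5, 148 to 213 elsewhere). Col1a1 (77.9 against 47.1 to 60.4) and Dcn (87.4 against 10.1 to 36.8) were also highest in mTEC-I, whereas Pdgfrb was highest in mTEC-IV (127 against 15.1 to 36.3). Tek and Esam made up most of the endothelial sum in mTEC-IV (407 and 396), whereas Pecam1 was lowest there (59.7 against 73.2 to 77.03) and Kdr had 243 in mTEC-I and 222 in mTEC-IV. Of 6 B cell and myeloid markers 4 had a peak, with a summed mean of 88.8 in mTEC-I, 91.3 in mTEC-II, 155 in mTEC-III and 110.2 in mTEC-IV. Among them Itgax was highest in mTEC-III (84.7 against 10.4 to 25.4) and Cd79a in mTEC-IV (67.4 against 8.94 to 12.2). The part of any of these markers in the results below was not tested. In such bulk chromatin, more cells that carry the mark and more of it per cell cannot be told apart.

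An F test over the 4 populations called 99 of the 134 member peaks, or 73.9%, where 58.2% of all tested peaks were called. In each pair with mTEC-I, a larger share of members than of all peaks was called higher in mTEC-I. Against mTEC-II, 48 were higher in mTEC-I (background 9.5%) and 19 lower (15.8%). Against mTEC-III, 43 were higher (13.7%) and 16 lower (17.1%), and against mTEC-IV, 50 were higher (15.2%) and 24 lower (25.5%). As shares of the 134 these are 35.8%, 32.1% and 37.3% for the higher calls, so each was more than the background, while each share of lower calls (14.2%, 11.9% and 17.9%) was under it. The median difference of members was 0.25, 0.23 and 0.23 against mTEC-II, mTEC-III and mTEC-IV, where the median over all peaks was 0.01, -0.03 and -0.03. Without mTEC-I replicate 2 the higher calls were 52, 43 and 49. They fell to 28 and 31 without mTEC-II replicate 1 or 2 (against mTEC-II), to 25 against mTEC-III when mTEC-III replicate 1 was left out, and to 32 against mTEC-IV when its replicate 1 was left out. The lower calls fell to 7 and 6 without mTEC-II replicate 1 or 2, and to 8 and 10 without mTEC-III replicate 1 or 2. Against mTEC-IV they fell to 14 without its replicate 2. Without the 15 peaks of the IRF2-binding proteins, 119 peaks remain, of which 92 passed the F test (77.3%). Of these 119, 46, 40 and 49 were higher in mTEC-I than in mTEC-II, mTEC-III and mTEC-IV (38.7%, 33.6% and 41.2%), and 19, 15 and 18 were lower (16%, 12.6% and 15.1%). Counts under a left-out library or another setting are given here and below without the share of all peaks. Such a setting can change that share too, so a rise or fall in these counts is not a result about the members. Without mTEC-II replicate 1 the median difference of members from mTEC-II was 0.23 (all peaks -4e-04). Without mTEC-II replicate 2 it was 0.27 (all peaks 0.01). The gaps between members and background were not tested.

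Among the other 3 populations the shares of members were closer to the background. Between mTEC-II and mTEC-III, 12 were higher in mTEC-II (background 9.88%) and 9 lower (7.69%). Between mTEC-II and mTEC-IV, 24 were higher in mTEC-II (12.7%) and 25 lower (17.4%), and between mTEC-III and mTEC-IV, 22 were higher in mTEC-III (13.3%) and 24 lower (22%). An mTEC-I library has no part in a difference between other populations, but it does enter the spread that the fit shares. The median difference of members, mTEC-II minus mTEC-III, was -0.0746 with all libraries and also without either mTEC-I library. It was -0.047 and -0.066 without mTEC-II replicate 1 or 2, and -0.1096 and -0.007 without mTEC-III replicate 1 or 2. Counts between mTEC-II and mTEC-III rose without either mTEC-I library and fell without any one mTEC-II or mTEC-III library. Those between mTEC-II and mTEC-IV fell to 13 and 16 without mTEC-II replicate 1, 12 and 16 without mTEC-II replicate 2, and 15 and 16 without mTEC-IV replicate 1, and the lower count was 38 without mTEC-I replicate 1. Those between mTEC-III and mTEC-IV fell to 12 higher without mTEC-III replicate 2, to 13 higher and 14 lower without mTEC-IV replicate 1, and to 14 higher without mTEC-IV replicate 2.

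Most of the higher calls in mTEC-I lay at start sites. In all, 69 member peaks lay within 3000 bases of an annotated start, a cutoff set after the data were seen, and 65 lay farther away. Of the 69, 41 were higher in mTEC-I than in mTEC-II (all such peaks 14.2%), 32 higher than in mTEC-III (15.1%) and 38 higher than in mTEC-IV (15.4%). The median difference over the 69 was 0.49, 0.34 and 0.38, where all peaks near starts had 0.14, 0.03 and 0.07. By the mean of its libraries, mTEC-I was the highest population at 51 of the 69 (73.9%, where it was at 39% of all peaks near starts). The lowest was mTEC-II or mTEC-IV at 55 of the 69. The like share of all peaks near starts was not counted, so this count cannot be read as particular to the members. Without mTEC-II replicate 1 the 41 became 25, and without mTEC-III replicate 1 the 32 became 20.

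**Figure D1:**
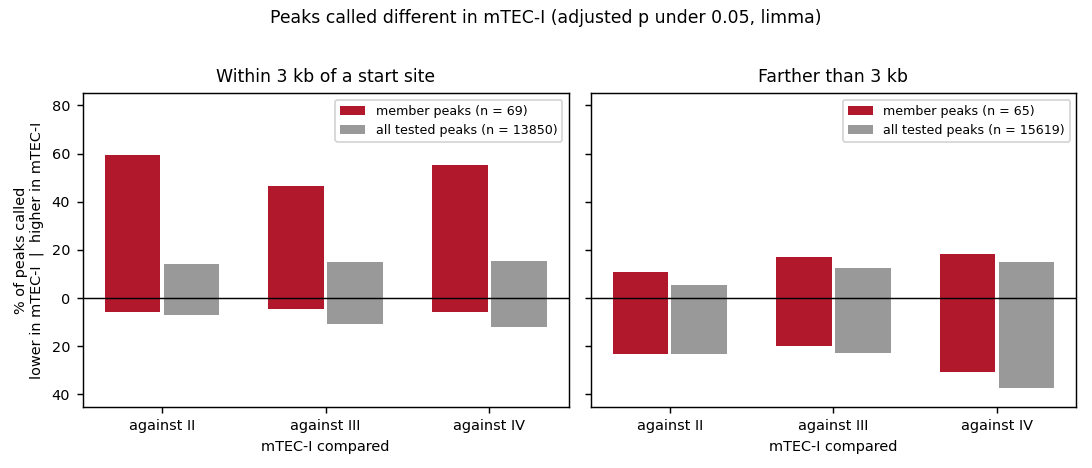
Share of peaks called higher (upward bars) or lower (downward bars) in mTEC-I than in each other population, in percent, for member peaks and for all tested peaks, split at 3000 bases from a start site. Near starts 59.4%, 46.4% and 55.1% of members were called higher, against 14.2%, 15.1% and 15.4% of all peaks, and farther away the gaps between the bars of members and of all peaks are smaller.

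Away from starts the shares of members lay closer to those of other distal peaks. Of the 65, 15 were lower in mTEC-I than in mTEC-II (all distal peaks 23.4%), 13 lower than in mTEC-III (22.9%) and 20 lower than in mTEC-IV (37.3%). These are 23.1%, 20% and 30.8% of the 65, and mTEC-IV was the highest population at 31 of them (47.7%, all distal peaks 41.7%) while mTEC-I was at 9 (13.8%, all distal peaks 17.4%). At Slfn8 the start-site peak was highest in mTEC-I and the distal peak in mTEC-IV, though the latter call over mTEC-I ended in alternatives named below. At Irf2 the populations lay close at the start-site peak, with mTEC-IV lowest. Its distal peaks described below were highest in populations other than mTEC-I.

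Peaks that set 1 population apart from each of the other 3 were counted as those called in all 3 of its pairs. For mTEC-I there were 23 higher (background 2.77%) and 8 lower (7.68%). For mTEC-II there were 4 higher (1.65%) and 4 lower (0.652%), for mTEC-III 1 higher (2.69%) and 2 lower (3.06%), and for mTEC-IV 9 higher (11.1%) and 9 lower (4.56%). Near starts, mTEC-I had 21 of 69 higher (4.27%). Among the 65 distal peaks it had 7 lower (11.2%), and mTEC-IV had 8 higher (17.4%). Of the 9 higher in mTEC-IV, 4 belong to the IRF2-binding proteins, and 5 of the remaining 119 members (4.2%) were so called. None of the 23 higher or 8 lower in mTEC-I are theirs. The 23 became 14 without mTEC-II replicate 1 or 2 and 26 without mTEC-I replicate 2. The 8 lower in mTEC-I rose to 16 and 13 without mTEC-I replicate 1 or 2. They became 5 and 4 without mTEC-II replicate 1 or 2, and 4 without mTEC-III replicate 1, mTEC-III replicate 2 or mTEC-IV replicate 2. The 9 higher in mTEC-IV became 5 without mTEC-II replicate 2, 5 without mTEC-IV replicate 1 and 4 without mTEC-IV replicate 2, and the 9 lower became 5 without mTEC-II replicate 2. The 4 higher in mTEC-II became 0 without mTEC-II replicate 1, mTEC-II replicate 2 or mTEC-III replicate 1, 1 when leaving out mTEC-III replicate 2 and 2 when leaving out mTEC-IV replicate 1. The 4 lower in mTEC-II rose to 10 and 8 without mTEC-I replicate 1 or 2. They became 1 without mTEC-II replicate 1 or mTEC-III replicate 1, and 2 without mTEC-II replicate 2, mTEC-III replicate 2 or mTEC-IV replicate 1. The 1 higher in mTEC-III became 5 without either mTEC-I library and 0 when leaving out mTEC-II replicate 1 or mTEC-III replicate 1. The 2 lower became 6 and 5 without mTEC-I replicate 1 or 2. They became 1 without any one mTEC-II or mTEC-III library. All 3 calls held in every one of the 18 alternatives at 9 of the 23 peaks higher in mTEC-I, those of Ifit2, Ifit3, Ifi27l2a, Ifi35, Ifi44, Ifnlr1, Oasl2, Iigp1 at its start and Slfn8 at its start. Counts of peaks by family below are small, and are to be read against the same shares of all tested peaks. Below, a difference printed with its p held in all 18 alternatives unless the alternative that ended it is named. Peaks were named by a rule on their test results and levels, and Ifi44, Ifi35, Rsad2, Mx2, Ifngr1, Ifnb1, Ifih1 in its intron, Irf7, Stat2, Ifit3b, Irgm1 at its start, Irf2 at its start, Ifnar1, Oas1b, Oas1g, Oas3, Ifi205, Ifi27, Ifitm10, Slfn8 at its start, Slfn9, Slfn2 at its start and Iigp1 at 20829 bases upstream were added after their values were seen.

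**Figure D2:**
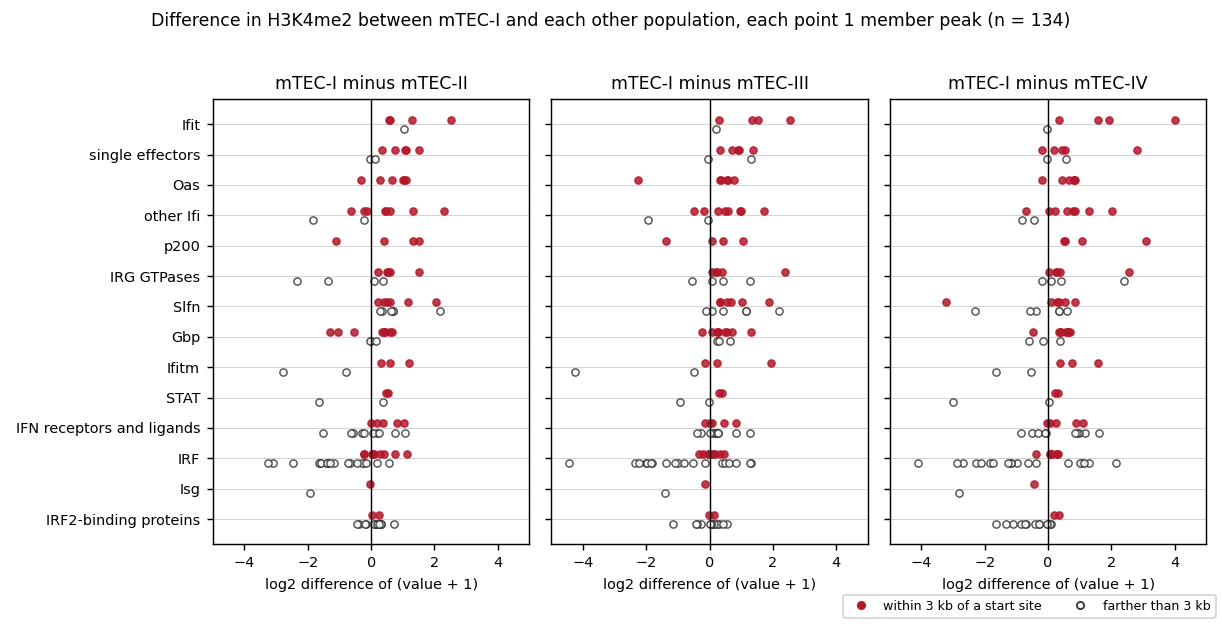
Difference in H3K4me2 between mTEC-I and each other population, on the log2(value + 1) scale, for the 134 member peaks by family, where each point is 1 peak, filled within 3 kb of a start and open farther away. Filled points of the Ifit family lie right of 0 in all 3 panels, and open points of the IRF family reach -4.45 against mTEC-III.

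Interferon receptors and ligands gave 15 peaks at 10 genes, of which 7 passed the F test (46.7%, under the 58.2% of all tested peaks). Ifnlr1, the binding chain of the interferon lambda receptor of epithelia, had 253 and 306 tags in mTEC-I, 127 and 145 tags in mTEC-II, 143 and 168 tags in mTEC-III and 139.7 and 159 tags in mTEC-IV. Both mTEC-I libraries lay above all others, by 1.03 ± 0.14 SE (adjusted p = 5.01e-04) against mTEC-II, 0.84 ± 0.14 (adjusted p = 0.00113) against mTEC-III and 0.90 ± 0.14 (adjusted p = 4.07e-04) against mTEC-IV. Ifngr1, the binding chain of the interferon gamma receptor, had 346 and 447 tags in mTEC-I, 218 and 231 tags in mTEC-II, 296 and 273 tags in mTEC-III and 214 and 155 tags in mTEC-IV. Both mTEC-I libraries were highest, and mTEC-I was 0.81 ± 0.16 (adjusted p = 0.00361) above mTEC-II and 1.105 ± 0.16 (adjusted p = 1.76e-04) above mTEC-IV. The partner chain Ifngr2 was even, with 392 and 358 tags in mTEC-I, 380.2 and 365 tags in mTEC-II, 414 and 419.8 tags in mTEC-III and 389.8 and 385 tags in mTEC-IV at its start (F-test adjusted p = 0.29). Neither chain of the type I receptor passed at its start, where the adjusted F-test p was 0.0598 for Ifnar1 and 0.699 for Ifnar2. Among ligands no peak lay near a start. The peak 6901 bases downstream of Ifnb1, the gene of interferon beta, had 59.6 and 85.2 tags in mTEC-I, 35 and 32.6 tags in mTEC-II, 33.4 and 47.1 tags in mTEC-III and 39.6 and 35.2 tags in mTEC-IV. Its mTEC-I libraries were highest, but each of its 3 calls ended when a library was left out. The call over mTEC-II ended without mTEC-II replicate 1 or 2 (adjusted p = 0.087 and 0.112) and that over mTEC-IV without mTEC-I replicate 2 (0.0616), mTEC-IV replicate 1 (0.0571) or mTEC-IV replicate 2 (0.103). The call of Ifnb1 over mTEC-III ended with library weights (0.115) and without each library but mTEC-I replicate 1 and mTEC-III replicate 2 (0.0555 to 0.229). A peak 6758 bases downstream of Ifne, an interferon of epithelia, was highest in mTEC-II, with 18.6 and 11.8 tags in mTEC-I, 44.5 and 43.3 tags in mTEC-II, 12.6 and 12.9 tags in mTEC-III and 3.3 and 5.38 tags in mTEC-IV. The difference was 3.10 ± 0.45 (adjusted p = 3.81e-04) for mTEC-II over mTEC-IV.

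Of the factors that carry the signal, Stat2 had 228 and 194 tags in mTEC-I, 147 and 142 tags in mTEC-II, 172 and 169 tags in mTEC-III and 176 and 164 tags in mTEC-IV, with both mTEC-I libraries above the other 6. Irf9, the DNA-binding partner of STAT2, was set apart by mTEC-II, with 333 and 353 tags in mTEC-I, 157 and 153 tags in mTEC-II, 276 and 268 tags in mTEC-III and 321 and 321 tags in mTEC-IV. Both mTEC-II libraries lay below the other 6. The difference was 1.14 ± 0.09 (adjusted p = 1.91e-05) for mTEC-I minus mTEC-II, -0.81 ± 0.09 (adjusted p = 3.46e-04) for mTEC-II minus mTEC-III and -1.05 ± 0.09 (adjusted p = 1.55e-05) for mTEC-II minus mTEC-IV. Irf7, the amplifier of type I interferon genes, had 166 and 226 tags in mTEC-I, 117 and 112 tags in mTEC-II, 134 and 149.6 tags in mTEC-III and 192 and 179 tags in mTEC-IV, highest in mTEC-I and mTEC-IV.

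Other start sites of the IRF family were flatter. Irf1, an activator induced by interferon gamma, had 402 and 376 tags in mTEC-I, 371 and 369 tags in mTEC-II, 312 and 387 tags in mTEC-III and 344 and 380.0 tags in mTEC-IV and the family's largest F-test p (0.571). Irf8, known in myeloid cells, had 493 and 505 tags in mTEC-I, 499 and 479 tags in mTEC-II, 517 and 526 tags in mTEC-III and 386 and 421 tags in mTEC-IV at its start, lowest in mTEC-IV, with 0.37 ± 0.08 (adjusted p = 0.00325) for mTEC-III over mTEC-IV.

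The IRF family had 19 distal peaks, of which 17 passed the F test (89.5%, all distal peaks 71.5%). Called lower in mTEC-I than in mTEC-II, mTEC-III and mTEC-IV were 8, 9 and 9 (42.1%, 47.4% and 47.4%), where 23.4%, 22.9% and 37.3% of all distal peaks were. Called higher were 0, 2 and 4, the latter being 10.5% and 21.1%, beside 5.33%, 12.4% and 14.9% of all distal peaks. These gaps were not tested. Irf2, which competes with IRF1 at the same sites, had 9 peaks along its first 100510 bases. Its start-site peak had 357 and 320.2 tags in mTEC-I, 317 and 324 tags in mTEC-II, 317 and 314 tags in mTEC-III and 279.9 and 273 tags in mTEC-IV. The populations lay close there, though both mTEC-IV libraries were below all others. The peak 60138 bases downstream, in intron 2, had 16.2 and 11.8 tags in mTEC-I, 46.7 and 45.2 tags in mTEC-II, 45.4 and 58.9 tags in mTEC-III and 42.3 and 55 tags in mTEC-IV. Both mTEC-I libraries lay below the other 6, with differences of -1.66 ± 0.29 (adjusted p = 0.00187), -1.83 ± 0.29 (adjusted p = 6.71e-04) and -1.73 ± 0.29 (adjusted p = 5.17e-04) against mTEC-II, mTEC-III and mTEC-IV. The peak at 92409 bases, in intron 6, had 3.1 and 0 tags in mTEC-I, 17.5 and 19.2 tags in mTEC-II, 38.5 and 48.9 tags in mTEC-III and 13.8 and 10.8 tags in mTEC-IV, highest in mTEC-III, with mTEC-I minus mTEC-III of -4.45 ± 0.64 (adjusted p = 3.56e-04). The peak at 79791 bases, also in intron 6, had 1.55 and 2.94 tags in mTEC-I, 7.14 and 7.4 tags in mTEC-II, 12 and 11.8 tags in mTEC-III and 48.9 and 58.5 tags in mTEC-IV. It was high in mTEC-IV alone. Its mTEC-I minus mTEC-IV difference of -4.10 ± 0.50 (adjusted p = 6.62e-05) ended under cyclic loess (adjusted p = 0.0555). At the 6 peaks from 50782 bases on, mTEC-I replicate 2 held 0 to 2 tags each, at or under the 17.6 that a count of 0 allows, so the sizes of these differences are imprecise.

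**Figure D3:**
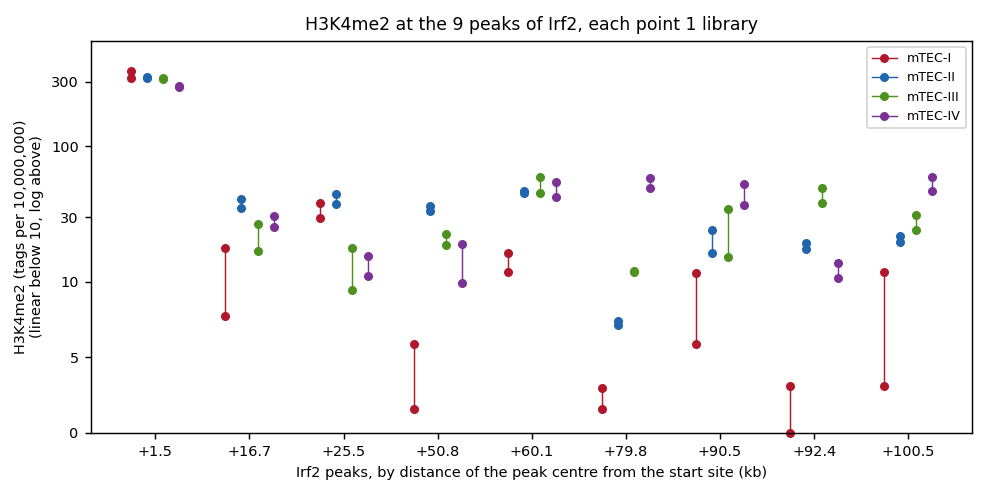
H3K4me2 in tags per 10000000 at the 9 peaks of Irf2 by distance of the peak centre from the start in kb, where each point is 1 library, lines join the 2 libraries of a population, and the axis is linear below 10 and logarithmic above. At the start the populations overlap or lie close, and from 50782 bases on both mTEC-I libraries lie below every other library at all 6 peaks.

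Irf8 and Irf4, a factor of lymphoid cells, each had a distal peak called lower in mTEC-I than in each other population. At Irf4 these calls did not all hold in every alternative, and the values of that peak are not shown. The one 10829 bases upstream of Irf8 had 10.8 and 5.88 tags in mTEC-I, 49 and 49.2 tags in mTEC-II, 27.8 and 36.5 tags in mTEC-III and 36.8 and 40.03 tags in mTEC-IV. The difference of mTEC-I minus mTEC-II was -2.47 ± 0.34 (adjusted p = 5.11e-04) and that of mTEC-I minus mTEC-IV was -2.13 ± 0.34 (adjusted p = 4.51e-04). Upstream of Irf4, by 34780 bases, another peak had 41.8 and 41.1 tags in mTEC-I, 67.2 and 72.2 tags in mTEC-II, 40.4 and 53 tags in mTEC-III and 21.4 and 17.3 tags in mTEC-IV. It was low in mTEC-IV rather than mTEC-I, with 1.80 ± 0.26 (adjusted p = 3.3e-04) for mTEC-II over mTEC-IV. The peak 43452 bases downstream of Irf1, in an intron of Gm12216, had 30.2 and 29.4 tags in mTEC-I, 31.8 and 38.5 tags in mTEC-II, 20.8 and 24.1 tags in mTEC-III and 6.6 and 5.38 tags in mTEC-IV. Its mTEC-IV libraries were the lowest by 1.75 ± 0.36 (adjusted p = 0.00285) from mTEC-III.

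The Ifit genes, whose products bind viral RNA and block its translation, were higher in mTEC-I at most of their peaks. The 5 peaks sit at Ifit1, Ifit2, Ifit3 and Ifit3b, and the 4 near starts were each highest in mTEC-I (all peaks near starts 39%). Summed over the family the level was 1204 and 1178 in mTEC-I, where mTEC-II had 513 and 528, mTEC-III had 575 and 553, and mTEC-IV had 497 and 505. The peak in intron 1 of Ifit3 (chr19:34657099-34661281, mm9) had 353 and 335 tags in mTEC-I, 57.1 and 60.7 tags in mTEC-II, 55.5 and 61.2 tags in mTEC-III and 22 and 19.1 tags in mTEC-IV. Both mTEC-I libraries stood far above the other 6, and mTEC-IV lay below the rest without overlap. The difference was 2.53 ± 0.18 (adjusted p = 9.66e-06) against mTEC-II, 2.54 ± 0.18 (adjusted p = 5.14e-06) against mTEC-III and 4.00 ± 0.18 (adjusted p = 9.71e-08) against mTEC-IV. At the neighbouring Ifit2 (chr19:34624370-34629112) the values were 361 and 382 tags in mTEC-I, 149 and 153 tags in mTEC-II, 141 and 152 tags in mTEC-III and 139 and 112 tags in mTEC-IV. The mTEC-I libraries again stood alone, with 1.29 ± 0.13 (adjusted p = 5.75e-05) against mTEC-II and 1.56 ± 0.13 (adjusted p = 3.79e-06) against mTEC-IV. Ifit3b, the near copy of Ifit3, had 61.1 and 67.6 tags in mTEC-I, 45.4 and 38.5 tags in mTEC-II, 17 and 27.7 tags in mTEC-III and 14.8 and 17.9 tags in mTEC-IV. There mTEC-I and mTEC-II both lay above mTEC-III and mTEC-IV, with 1.91 ± 0.31 (adjusted p = 4.6e-04) for mTEC-I against mTEC-IV. The start-site peak of Ifit1 was more even, with 376 and 344 tags in mTEC-I, 242 and 243 tags in mTEC-II, 312 and 271 tags in mTEC-III and 267 and 304 tags in mTEC-IV. There mTEC-I was 0.56 ± 0.11 (adjusted p = 0.00328) above mTEC-II. A second Ifit1 peak, 21199 bases downstream of the start and between genes, had the family's largest F-test p (0.0196), with 53.4 and 49.9 tags in mTEC-I, 18.5 and 32.6 tags in mTEC-II, 49.2 and 40.6 tags in mTEC-III and 53.9 and 52 tags in mTEC-IV. Its mean was highest in mTEC-IV and lowest in mTEC-II. The difference of mTEC-II minus mTEC-IV, -1.08 ± 0.29 (adjusted p = 0.0139), ended when leaving out mTEC-II replicate 1 (0.182), mTEC-IV replicate 1 (0.0877) or mTEC-IV replicate 2 (0.0785). That of mTEC-I minus mTEC-II, 1.04 ± 0.29 (adjusted p = 0.0214), ended with library weights (0.0616) and when leaving out mTEC-II replicate 1 (0.227).

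**Figure D4:**
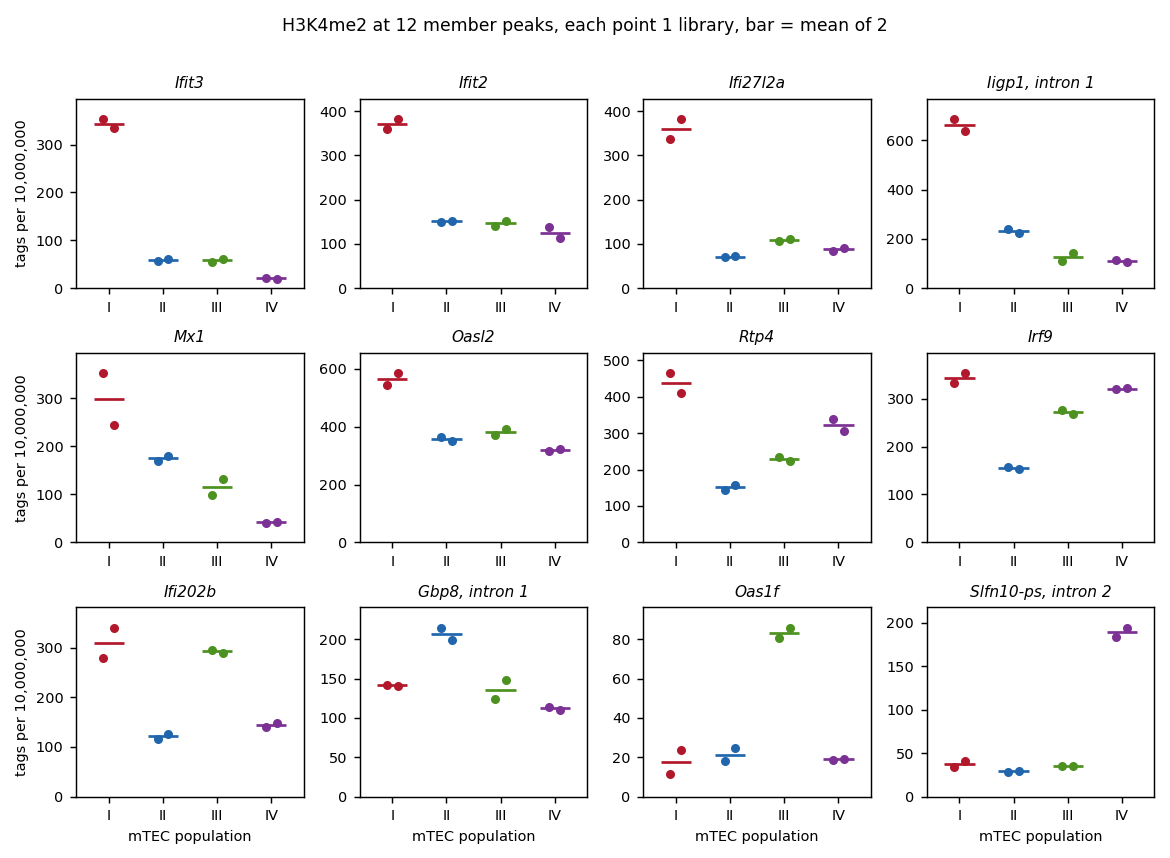
H3K4me2 in tags per 10000000 at 12 member peaks, by population, where points are libraries and bars the mean of 2. Ifit3, Ifit2, Ifi27l2a, Iigp1, Mx1 and Oasl2 are highest in both mTEC-I libraries, Irf9 and Rtp4 are lowest in mTEC-II, Ifi202b is high in mTEC-I and mTEC-III, Gbp8 is highest in mTEC-II, Oas1f in mTEC-III and Slfn10-ps in mTEC-IV.

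Of 5 start-site peaks of single antiviral effectors, 4 were higher in mTEC-I than in each other population, a call made at 4.27% of all peaks near starts. Mx1, a GTPase that blocks influenza virus, had 351 and 244 tags in mTEC-I, 169 and 180.3 tags in mTEC-II, 97.8 and 131 tags in mTEC-III and 40.7 and 41.8 tags in mTEC-IV. Its libraries stepped down from mTEC-I through mTEC-II and mTEC-III to mTEC-IV with no overlap, and mTEC-I was 2.80 ± 0.19 (adjusted p = 9.91e-07) above mTEC-IV. Its difference from mTEC-II, 0.74 ± 0.19 (adjusted p = 0.0147), was lost when mTEC-II replicate 1 or 2 was left out (adjusted p = 0.117 and 0.0801). Mx2 had 221 and 341 tags in mTEC-I, 126 and 132 tags in mTEC-II, 150.1 and 144 tags in mTEC-III and 180.3 and 195 tags in mTEC-IV. Both mTEC-I libraries were highest, and mTEC-I was 1.09 ± 0.17 (adjusted p = 0.00102) above mTEC-II. Rtp4, a chaperone of receptors at the cell surface, had 464 and 411 tags in mTEC-I, 145 and 159 tags in mTEC-II, 235 and 223 tags in mTEC-III and 339.8 and 305 tags in mTEC-IV. Both mTEC-II libraries were lowest, with mTEC-I minus mTEC-II of 1.52 ± 0.11 (adjusted p = 9.66e-06) and mTEC-II minus mTEC-IV of -1.08 ± 0.11 (adjusted p = 3.11e-05). The call of mTEC-I over mTEC-IV at Rtp4 ended without mTEC-IV replicate 2 (adjusted p = 0.0721). Rsad2, which encodes the antiviral enzyme viperin, was high in both mTEC-I and mTEC-IV, with 188 and 170.4 tags in mTEC-I, 84.7 and 86.6 tags in mTEC-II, 95.3 and 127 tags in mTEC-III and 210.0 and 195 tags in mTEC-IV. Its mTEC-I minus mTEC-II difference was 1.05 ± 0.15 (adjusted p = 6.67e-04), and mTEC-III minus mTEC-IV was -0.87 ± 0.15 (adjusted p = 0.00117). Usp18 removes ISG15 from proteins and dampens interferon receptor signalling. The broad peak at its start had 639.9 and 623 tags in mTEC-I, 491 and 508 tags in mTEC-II, 497 and 498 tags in mTEC-III and 543 and 562 tags in mTEC-IV. Thus both mTEC-I libraries were highest by a small margin, 0.34 ± 0.07 (adjusted p = 0.00349) over mTEC-III. The difference of Usp18 from mTEC-IV, 0.19 ± 0.07 (adjusted p = 0.0464), ended in 11 of 18 alternatives, among them leaving out mTEC-I replicate 1 or any one mTEC-II or mTEC-IV library (0.0882 to 0.206).

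The Oas family includes the enzymes that activate RNase L on sensing double-stranded RNA. All 6 peaks lay near starts, and 5 were highest in mTEC-I, beside 39% of all peaks near starts. mTEC-I was called higher at 4 of 6 against mTEC-II, 2 of 6 against mTEC-III and 5 of 6 against mTEC-IV. For these calls the shares of all peaks near starts were 14.2%, 15.1% and 15.4%. Oasl2 (chr5:115346331-115352847) had 545 and 585 tags in mTEC-I, 364 and 349 tags in mTEC-II, 371 and 392 tags in mTEC-III and 316 and 324 tags in mTEC-IV. The mTEC-I libraries lay above all others, by 0.66 ± 0.08 (adjusted p = 2.57e-04) against mTEC-II, 0.56 ± 0.08 (adjusted p = 4.37e-04) against mTEC-III and 0.82 ± 0.08 (adjusted p = 1.81e-05) against mTEC-IV. Oas1b, annotated inside the promoter of Oas1c, had 224 and 241 tags in mTEC-I, 107 and 107 tags in mTEC-II, 176 and 187 tags in mTEC-III and 122 and 142 tags in mTEC-IV. Both mTEC-III libraries came next after mTEC-I, and mTEC-I was 1.114 ± 0.13 (adjusted p = 1.42e-04) above mTEC-II. Oas3 had 176 and 112 tags in mTEC-I, 68.1 and 70.3 tags in mTEC-II, 95.3 and 93 tags in mTEC-III and 77 and 78.3 tags in mTEC-IV. It was 1.01 ± 0.20 (adjusted p = 0.00433) higher in mTEC-I than in mTEC-II. Oas1g had 146 and 188 tags in mTEC-I, 75.3 and 85.5 tags in mTEC-II, 83.3 and 112 tags in mTEC-III and 112 and 96.8 tags in mTEC-IV, with 1.04 ± 0.19 (adjusted p = 0.00253) against mTEC-II. Oas1f broke the pattern: at its promoter (chr5:121296194-121298390) the values were 11.6 and 23.5 tags in mTEC-I, 17.8 and 24.8 tags in mTEC-II, 80.8 and 86 tags in mTEC-III and 18.7 and 19.1 tags in mTEC-IV. Only the mTEC-III libraries were raised, with mTEC-III minus mTEC-IV of 2.08 ± 0.36 (adjusted p = 0.00111) and mTEC-I minus mTEC-III of -2.26 ± 0.36 (adjusted p = 7.73e-04). Against mTEC-II the call at Oas1f, -1.93 ± 0.36 (adjusted p = 0.00517), was lost when leaving out mTEC-II replicate 1 or mTEC-III replicate 1 (0.0749 and 0.0593). The B cell and myeloid markers also had their highest sum in mTEC-III (155), and their part here and at Ifitm10 was not tested. Oas1a, beside these copies, had the largest F-test p of the family (0.119).

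Other interferon-induced genes included the start-site peaks of Ifi27l2a, Ifi44 and Ifi35, which were each higher in mTEC-I than in all 3 other populations. Ifi27l2a, a small membrane protein of mitochondria and the nuclear envelope, had 337 and 382 tags in mTEC-I, 70.7 and 71.8 tags in mTEC-II, 107 and 111 tags in mTEC-III and 84.7 and 90.2 tags in mTEC-IV. Both mTEC-I libraries lay far above every other, with 2.32 ± 0.14 (adjusted p = 3.58e-06) against mTEC-II, 1.71 ± 0.14 (adjusted p = 9.37e-06) against mTEC-III and 2.03 ± 0.14 (adjusted p = 8.91e-07) against mTEC-IV. Ifi44, whose product limits viral growth, had 258 and 253 tags in mTEC-I, 106 and 97 tags in mTEC-II, 134 and 121 tags in mTEC-III and 119.9 and 90.8 tags in mTEC-IV. Both mTEC-I libraries lay above the other 6, by 1.32 ± 0.15 (adjusted p = 1.58e-04) from mTEC-II. Ifi35 had 331 and 364 tags in mTEC-I, 236 and 223 tags in mTEC-II, 231 and 233 tags in mTEC-III and 234 and 225 tags in mTEC-IV, a smaller and even step of 0.60 ± 0.10 (adjusted p = 5.18e-04) against mTEC-IV. The related Ifi27 went the other way, with 74.3 and 64.6 tags in mTEC-I, 98.6 and 118 tags in mTEC-II, 93.4 and 102 tags in mTEC-III and 123 and 105 tags in mTEC-IV. It was lower in mTEC-I than in each other population, with mTEC-I minus mTEC-IV of -0.71 ± 0.17 (adjusted p = 0.0055). That call at Ifi27 ended without mTEC-IV replicate 1 (0.0646). Ifi30, a thiol reductase of antigen processing, did not pass the F test (adjusted p = 0.411), with population means of 184 to 210.

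Ifih1 encodes MDA5, a sensor of double-stranded RNA, and its peaks differed within the gene. The start-site peak had 469 and 420.1 tags in mTEC-I, 329 and 321 tags in mTEC-II, 380.4 and 363 tags in mTEC-III and 367 and 391 tags in mTEC-IV, highest in mTEC-I. A peak 22719 bases downstream of the start, in an intron, had 19.4 and 23.5 tags in mTEC-I, 80.8 and 77 tags in mTEC-II, 82 and 87.7 tags in mTEC-III and 29.7 and 29.3 tags in mTEC-IV. Both mTEC-II and both mTEC-III libraries were high and the other 4 low, with mTEC-I minus mTEC-II of -1.84 ± 0.23 (adjusted p = 2.42e-04), mTEC-I minus mTEC-III of -1.94 ± 0.23 (adjusted p = 1.07e-04) and mTEC-III minus mTEC-IV of 1.49 ± 0.23 (adjusted p = 4.73e-04). By mean, mTEC-I was thus highest at the start and lowest at this distal peak, where mTEC-IV lay close to it. At neither peak was mTEC-I called different from each other population.

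The p200 genes lie side by side on chromosome 1 and encode sensors and regulators that bind DNA. Ifi202b (chr1:175910034-175914148) had 279 and 341 tags in mTEC-I, 116 and 126 tags in mTEC-II, 295 and 290.3 tags in mTEC-III and 141 and 149 tags in mTEC-IV. It was high in mTEC-I and mTEC-III and low in mTEC-II and mTEC-IV without overlap, with 1.34 ± 0.12 (adjusted p = 3.48e-05) for mTEC-I minus mTEC-II and 1.01 ± 0.12 (adjusted p = 1.08e-04) for mTEC-III minus mTEC-IV. Ifi204 had 150.1 and 273 tags in mTEC-I, 66.8 and 75.5 tags in mTEC-II, 85.2 and 111 tags in mTEC-III and 26.9 and 19.7 tags in mTEC-IV. Its mTEC-I libraries were far apart from each other, yet both lay above the rest, and mTEC-IV lay below the rest by 1.58 ± 0.27 (adjusted p = 0.00113) from mTEC-II and 2.03 ± 0.27 (adjusted p = 2.08e-04) from mTEC-III. Without mTEC-III replicate 1 the call of mTEC-I over mTEC-III at Ifi204 ended (adjusted p = 0.126). Ifi205 had 17 and 14.7 tags in mTEC-I, 32.8 and 38.5 tags in mTEC-II, 43.5 and 41.2 tags in mTEC-III and 9.35 and 11.9 tags in mTEC-IV, low in mTEC-I and mTEC-IV, with mTEC-III minus mTEC-IV of 1.91 ± 0.34 (adjusted p = 0.00116). Ifi203 passed the F test less clearly (adjusted p = 0.0376), at means of 228 in mTEC-I and 159 to 172 elsewhere. Of these 4 neighbours, 3 had their highest mean in mTEC-I (all peaks near starts 39%) and Ifi205 had it in mTEC-III.

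The Ifitm genes encode membrane proteins that hinder the fusion of viruses with cells. Ifitm2 had 241 and 264 tags in mTEC-I, 153 and 178 tags in mTEC-II, 199 and 234 tags in mTEC-III and 131 and 167 tags in mTEC-IV. It was 0.76 ± 0.14 (adjusted p = 0.0013) higher in mTEC-I than in mTEC-IV. Ifitm7 had 96 and 99.9 tags in mTEC-I, 45.4 and 38.5 tags in mTEC-II, 33.4 and 18.2 tags in mTEC-III and 35.2 and 29.3 tags in mTEC-IV. This put both mTEC-I libraries above all others, by 1.94 ± 0.29 (adjusted p = 5.4e-04) against mTEC-III. The intronic peak of Ifitm10, 31493 bases from its start, was highest in mTEC-III, with 12.4 and 0 tags in mTEC-I, 25 and 23.3 tags in mTEC-II, 75.1 and 64.2 tags in mTEC-III and 14.8 and 7.17 tags in mTEC-IV. Its 0 in mTEC-I replicate 2 allows up to 17.6, and mTEC-I minus mTEC-III was -4.27 ± 0.89 (adjusted p = 0.00381), a call that ended without mTEC-III replicate 1 (0.0547). The peak nearest Ifitm1 lay 19499 bases downstream, between genes, and its call of mTEC-I under mTEC-II, -0.80 ± 0.23 (adjusted p = 0.0248), ended without mTEC-I replicate 1 and mTEC-II replicate 1 or 2, and under cyclic loess and under library weights (adjusted p = 0.0506 to 0.154).

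The immunity-related GTPases (IRG) act on vacuoles that hold parasites. Iigp1, an effector of the family against Toxoplasma, had a peak in its intron 1 (chr18:60532705-60539511) with 686 and 640.4 tags in mTEC-I, 239 and 226 tags in mTEC-II, 111 and 143 tags in mTEC-III and 114 and 108 tags in mTEC-IV. Both mTEC-I libraries stood above the rest, and mTEC-II above mTEC-III and mTEC-IV. The differences were 1.51 ± 0.13 (adjusted p = 2.3e-05), 2.39 ± 0.13 (adjusted p = 1.28e-06) and 2.56 ± 0.13 (adjusted p = 1.54e-07) for mTEC-I over mTEC-II, mTEC-III and mTEC-IV, and 1.06 ± 0.13 (adjusted p = 1.18e-04) for mTEC-II over mTEC-IV. Upstream, between genes, 2 further Iigp1 peaks were highest in mTEC-II. The one at 16773 bases had 14.7 and 5.88 tags in mTEC-I, 53.5 and 49.98 tags in mTEC-II, 10.1 and 20.02 tags in mTEC-III and 10.4 and 7.17 tags in mTEC-IV. The difference was 2.45 ± 0.51 (adjusted p = 0.00352) for mTEC-II over mTEC-IV. The one at 20829 bases had 13.9 and 23.5 tags in mTEC-I, 51.6 and 45.9 tags in mTEC-II, 2.52 and 17.1 tags in mTEC-III and 4.95 and 1.19 tags in mTEC-IV. Irgm1, a regulator of the other IRG proteins, had 511 and 538 tags in mTEC-I, 361 and 373 tags in mTEC-II, 397 and 410.4 tags in mTEC-III and 411 and 464 tags in mTEC-IV at its start. It was 0.51 ± 0.09 (adjusted p = 0.0015) higher in mTEC-I than in mTEC-II. The peak of Ifi47, which lies in an intron of Olfr56, did not pass the F test (adjusted p = 0.222).

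The guanylate-binding proteins (Gbp) are larger interferon gamma-induced GTPases with the same kind of target, and they did not move as 1 block. Among 9 start-site peaks all 9 passed the F test (all peaks near starts 43.1%), and 6 were highest in mTEC-I (all peaks near starts 39%). mTEC-I was called higher at 4, 3 and 5 of the 9 against mTEC-II, mTEC-III and mTEC-IV, beside 14.2%, 15.1% and 15.4% of all peaks near starts. Gbp5 (chr3:142158341-142162703), which promotes inflammasome assembly, had 336 and 306 tags in mTEC-I, 249 and 219.9 tags in mTEC-II, 133 and 127 tags in mTEC-III and 219 and 198 tags in mTEC-IV. Its mTEC-I libraries were highest and its mTEC-III libraries lowest, with 1.30 ± 0.12 (adjusted p = 1.89e-05) for mTEC-I over mTEC-III and 0.85 ± 0.12 (adjusted p = 8.88e-04) for mTEC-II over mTEC-III. Gbp8 had 142 and 141 tags in mTEC-I, 215 and 199 tags in mTEC-II, 124 and 148 tags in mTEC-III and 114 and 111 tags in mTEC-IV. Here mTEC-II was highest, with 0.88 ± 0.13 (adjusted p = 4.88e-04) over mTEC-IV, and its calls over mTEC-I and mTEC-III ended without mTEC-II replicate 1 (adjusted p = 0.128 and 0.13) or 2 (0.0704 and 0.0775), and over mTEC-III also without mTEC-III replicate 1 (0.0938). Gbp4, also on chromosome 5, had 106 and 52.9 tags in mTEC-I, 179.7 and 191 tags in mTEC-II, 79.5 and 100.1 tags in mTEC-III and 102 and 109 tags in mTEC-IV. Its mTEC-I minus mTEC-II difference was -1.29 ± 0.26 (adjusted p = 0.00416). Both mTEC-II libraries of Gbp4 lay above all others, though its calls over mTEC-III ended without any one mTEC-II or mTEC-III library (adjusted p = 0.0594 to 0.158) and those over mTEC-IV without any one mTEC-II, mTEC-III or mTEC-IV library (0.0578 to 0.163).

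The Schlafen cluster on chromosome 11 gave 12 peaks at 7 genes, and 11 of these peaks passed the F test (91.7%, all peaks 58.2%). Summed over the family the level was 1870.3 and 1979.9 in mTEC-I and 1729.8 and 1789 in mTEC-IV, against 1085 and 1122 in mTEC-II and 1011 and 1085 in mTEC-III. Both sums of mTEC-I and of mTEC-IV thus lay above the other 4. At 8 of 12 peaks mTEC-I was called higher than mTEC-II (66.7%, all peaks 9.5%), and at 8 of 12 mTEC-III was called lower than mTEC-IV (66.7%, all peaks 22%). At the start of Slfn8 (chr11:82832507-82835233) the values were 218 and 232 tags in mTEC-I, 45.7 and 63.7 tags in mTEC-II, 67.5 and 54.8 tags in mTEC-III and 120.4 and 131 tags in mTEC-IV. Both mTEC-I libraries were highest and both mTEC-IV libraries next, with 2.04 ± 0.19 (adjusted p = 3.52e-05) for mTEC-I over mTEC-II and 0.83 ± 0.19 (adjusted p = 0.00362) over mTEC-IV. A second Slfn8 peak in intron 3, 5722 bases downstream, had 131 and 147 tags in mTEC-I, 28.6 and 31.1 tags in mTEC-II, 25.2 and 35.3 tags in mTEC-III and 206 and 204 tags in mTEC-IV. There mTEC-IV took the lead, with mTEC-I minus mTEC-III of 2.18 ± 0.20 (adjusted p = 2.4e-05) and mTEC-III minus mTEC-IV of -2.74 ± 0.20 (adjusted p = 3.39e-06). The call of mTEC-IV over mTEC-I at that peak, -0.56 ± 0.20 (adjusted p = 0.0428), ended with equal totals in peaks (0.0577), with library weights (0.13), without mTEC-I replicate 1 (adjusted p = 0.0806), mTEC-II replicate 1 or 2 (0.0629 and 0.064) and mTEC-IV replicate 1 or 2 (0.171 and 0.16).

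The neighbouring pseudogene Slfn10-ps had a peak in its intron 2 (chr11:82844578-82848498) with 34 and 41.1 tags in mTEC-I, 28.6 and 29.6 tags in mTEC-II, 35.3 and 35.3 tags in mTEC-III and 184 and 194 tags in mTEC-IV. Only mTEC-IV was raised, with mTEC-I minus mTEC-IV of -2.30 ± 0.21 (adjusted p = 8.94e-06), mTEC-II minus mTEC-IV of -2.66 ± 0.21 (adjusted p = 6.59e-06) and mTEC-III minus mTEC-IV of -2.39 ± 0.21 (adjusted p = 1.11e-05). At the start of Slfn10-ps the order was another, with 115 and 147 tags in mTEC-I, 57.1 and 56.6 tags in mTEC-II, 76.3 and 104 tags in mTEC-III and 104 and 109.9 tags in mTEC-IV. Both mTEC-II libraries were lowest there, and mTEC-II minus mTEC-IV was -0.90 ± 0.19 (adjusted p = 0.00393). Slfn5os, an antisense transcript, was the nearest start of a peak that lies in exon 4 of Slfn5, and H3K4me2 cannot say which strand it marks. That peak had 2.32 and 5.88 tags in mTEC-I, 3.24 and 2.96 tags in mTEC-II, 1.89 and 4.12 tags in mTEC-III and 44 and 44.2 tags in mTEC-IV. It stood out in mTEC-IV from levels of a few tags, with mTEC-III minus mTEC-IV of -3.55 ± 0.67 (adjusted p = 0.00177). Its 3 calls ended under cyclic loess scaling (adjusted p = 0.367 to 0.607).

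**Figure D5:**
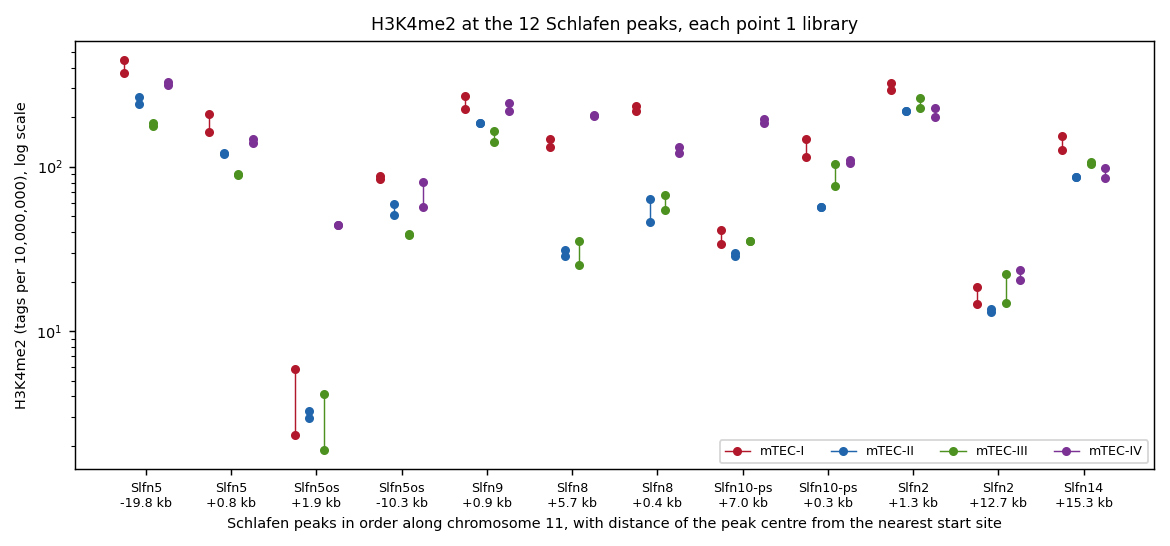
H3K4me2 in tags per 10000000, on a log axis, at the 12 Schlafen peaks in their order along chromosome 11, where each point is 1 library and lines join the 2 libraries of a population. At both Slfn8 peaks mTEC-I and mTEC-IV lie above mTEC-II and mTEC-III, and the intron peak of Slfn10-ps and the Slfn5os peak are high in mTEC-IV alone.

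Slfn5 restrains viral transcription, and its largest peak lay 19822 bases upstream of it, inside intron 13 of Unc45b, so it may belong to either gene. It had 368 and 444 tags in mTEC-I, 239 and 264 tags in mTEC-II, 185 and 177 tags in mTEC-III and 325 and 312 tags in mTEC-IV. The difference of mTEC-I minus mTEC-III was 1.16 ± 0.11 (adjusted p = 2.87e-05), and both mTEC-III libraries were lowest. Slfn9 had 270.1 and 223 tags in mTEC-I, 185 and 185 tags in mTEC-II, 141 and 165 tags in mTEC-III and 219 and 245 tags in mTEC-IV, again with mTEC-I and mTEC-IV above the other populations. Slfn2, which keeps T cells quiescent, had 293 and 323 tags in mTEC-I, 217 and 219 tags in mTEC-II, 226 and 259.7 tags in mTEC-III and 199.6 and 226 tags in mTEC-IV at its start. There the mTEC-I libraries were the highest and the mTEC-IV libraries lay near or below those of mTEC-II and mTEC-III. A small Slfn2 peak 12680 bases downstream had the family's largest F-test p (0.47).

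Isg20, an exonuclease that degrades viral RNA, was the one member gene named Isg with peaks, and its mean was highest in mTEC-IV at both. The peak 4248 bases upstream, at the end of Aen, had 9.29 and 5.88 tags in mTEC-I, 29.9 and 32.6 tags in mTEC-II, 15.8 and 28.9 tags in mTEC-III and 56.1 and 59.7 tags in mTEC-IV. Its order ran from mTEC-I, lowest, to mTEC-IV, with mTEC-I minus mTEC-IV of -2.81 ± 0.38 (adjusted p = 1.32e-04). Of the 15 peaks of the IRF2-binding proteins, mTEC-IV was called higher than each other population at 4 (26.7%), beside 11.1% of all peaks. All 4 are distal, and among all distal peaks the share was 17.4%. The peak 59636 bases downstream of Irf2bpl (chr12:88164037-88168219) had 103 and 109 tags in mTEC-I, 118 and 120.3 tags in mTEC-II, 88.3 and 119.5 tags in mTEC-III and 279.9 and 259.9 tags in mTEC-IV. The difference of mTEC-I minus mTEC-IV was -1.34 ± 0.15 (adjusted p = 4.44e-05). The peak 8663 bases upstream of Irf2bp2 had 64.2 and 118 tags in mTEC-I, 48 and 55.9 tags in mTEC-II, 75.1 and 87.7 tags in mTEC-III and 180.3 and 195 tags in mTEC-IV. At the latter both mTEC-IV libraries lay above the other 6. Neither of their 2 start-site peaks passed the F test.

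Other genes of the interferon pathway, from a list of 47 (receptor kinases, sensors, adaptors and further induced genes) of which 44 had 80 peaks, were counted in the same way. Of the 80, 20, 20 and 17 were called higher in mTEC-I than in mTEC-II, mTEC-III and mTEC-IV (25%, 25% and 21.2%, all peaks 9.5%, 13.7% and 15.2%). Called lower were 15, 7 and 16 (18.8%, 8.75% and 20%, all peaks 15.8%, 17.1% and 25.5%). Of their 44 start-site peaks, 17, 13 and 14 were higher (38.6%, 29.5% and 31.8%), beside 14.2%, 15.1% and 15.4% of all such peaks. At 9 of the 44 (20.5%, all such peaks 4.27%) mTEC-I was higher than each other population. These 9 were at Ddx60, Herc6, Parp14, Phf11d, Pml, Tgtp1, Tgtp2, Trim25 and Zbp1, all known as induced by interferon. Tgtp1, a further IRG-like GTPase, stood at means of 275 in mTEC-I, 58.9 in mTEC-II, 46.4 in mTEC-III and 138 in mTEC-IV.

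The authors' deposited peak lists, 1 per population, held the members to different degrees. The mTEC-I list held 52 of the 134 members (38.8%) where it held 23.4% of all merged peaks. The lists of mTEC-II, mTEC-III and mTEC-IV held 107, 93 and 99 members (79.9%, 69.4% and 73.9%), close to their shares of all peaks (80.2%, 64.5% and 75.6%). In all, 45 members were in all 4 lists and 40 in a single list, of which 1 was in the mTEC-I list alone. The like shares of all peaks were not counted. The mTEC-I list was also the smallest, with 6895 of the tested peaks against 19017 to 23623 in the other lists.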

How the data were processed

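H3K4me2 immunoprecipitates of 8 libraries, 2 per population, were analysed, and 8 whole-cell-extract samples were left out. The authors deposited 1 merged annotated table with a signal per peak and library, coverage per 10000000 tags of the library, per the file headers. They also deposited a peak list per population with a fold ratio and a p-value per peak, of which only membership was used. The submitters' processing notes name bcl2fastq 2.15.0.4, Picard 1.108 and mm9, and name no aligner.

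Every deposited value was a multiple of 0.5 tags within 0.1, so depth was recovered. Peaks with at least 10 in at least 2 libraries were kept (29469 tested), and 2 mitochondrial peaks were left out of the fit. Values were tested as log2(value + 1) with limma 3.58.1 (R 4.3.3, trended variance, 4 residual and 7.75 prior degrees of freedom) over the 4 populations, without a replicate block, by an F test and 6 pairwise contrasts. Adjustment was Benjamini-Hochberg over all tested peaks, and the script was tested on simulated data. Sequences were searched with Python 3.11.15 and pandas 2.3.3 in RefSeq promoters of GRCm38.p6, a build other than that of the peaks, and no coordinate was carried between them. Alternatives were pseudocounts of 0.5 and 5, no filter, other scalings, a replicate block and each library left out. Others were edgeR 4.0.16 and DESeq2 1.42.0 on counts of half-tag steps, 2 per recovered tag, with library totals scaled to match. Library quality weights were added after the data were seen.

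The members and lists were chosen with earlier results of these data known. Peaks were named by family (smallest F-test p, highest mean and, with at least 4 peaks, largest F-test p) and by population (up to 6 peaks higher, and up to 6 lower, than in each of the other 3). Some members and 1 marker are not reported here by name, and they remain in the fit and in the counts.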

Additional observations from a re-analysis of the deposited data

How the results depend on the processing

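The limits are those of depth, replication and the unequal spread between libraries given above. With 2 libraries a population, leaving 1 out leaves a lone sample that is assumed to vary like the other groups. In mTEC-I replicate 2 a level under 17.6 cannot be told from 0. Of 1062 comparisons of 59 named peaks under 18 alternatives, 1023 kept direction and call, 36 lost the call, 1 gained it, and 2 turned: Usp18 at 26164 bases, mTEC-II minus mTEC-IV, which ran from -0.36 without mTEC-IV replicate 1 to 0.018 without replicate 2, and Slfn2 at 12680 bases to 0.25 under cyclic loess. Neither was called. Of 316 pairwise calls, 145 held in every alternative.

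Leaving out each library in turn gave these lowest and highest counts. The F test called 77 to 113. Pairs gave, for higher and lower, 28 to 56 and 6 to 24 (mTEC-I against mTEC-II), 25 to 48 and 8 to 23 (mTEC-I against mTEC-III), 32 to 49 and 14 to 28 (mTEC-I against mTEC-IV), 2 to 22 and 3 to 27 (mTEC-II against mTEC-III), 12 to 29 and 16 to 38 (mTEC-II against mTEC-IV), and 12 to 28 and 14 to 35 (mTEC-III against mTEC-IV). Near starts, higher calls in mTEC-I were 25 to 44, 20 to 33 and 27 to 40. Peaks higher and lower than in each other population were 14 to 26 and 4 to 16 for mTEC-I, 0 to 5 and 1 to 10 for mTEC-II, 0 to 5 and 1 to 6 for mTEC-III, and 4 to 13 and 5 to 13 for mTEC-IV.

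Other settings moved fewer counts, and the cause was not tested. Cyclic loess gave 12 lower in mTEC-I than in mTEC-II, 15 lower than in mTEC-IV, and, against each other population, 4 lower in mTEC-I, 2 higher in mTEC-II, 5 lower in mTEC-III and 14 lower in mTEC-IV. The edgeR test gave 21 higher and 26 lower in mTEC-II than in mTEC-III, and, against each other population, 7 higher and 8 lower in mTEC-II, 4 higher and 5 lower in mTEC-III and 14 higher in mTEC-IV. DESeq2 gave 21 lower in mTEC-II than in mTEC-III and 4 higher in mTEC-III than in each other, where a pseudocount of 5 gave 3. Library weights gave 26 higher and 27 lower in mTEC-II than in mTEC-III, and 46 lower in mTEC-II than in mTEC-IV. Against each other population they gave 11 lower in mTEC-II, and 4 higher and 6 lower in mTEC-III. For mTEC-I the calls of both directions together fell under these weights. They went from 67 to 60 against mTEC-II, 59 to 44 against mTEC-III and 74 to 55 against mTEC-IV. The weights were 0.328 for each mTEC-I library, 2.27 for mTEC-II, 0.99 for mTEC-III and 1.36 for mTEC-IV.

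Libraries share only a replicate number: deviations of same-numbered libraries correlated at -0.0125 to 0.0159 over 6 pairs of populations. With the replicate block the F test called 98, the pairs in the order above 49 and 19, 40 and 15, 47 and 24, 11 and 10, 22 and 24, and 21 and 23, near starts 41, 30 and 36, and against each other population 22 and 7, 4 and 3, 1 and 2, and 9 and 9.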
